A study of Mus musculus with 12 samples.

Results

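Integrins are cell surface receptors built of an alpha and a beta chain, and 10 genes of this system were followed in RNA of CD11c cells from the mouse inguinal lymph node. They were chosen by name: Itgax, the gene of CD11c itself, the integrin subunits Itgam, Itgal, Itgb2, Itgae, Itga4, Itgb7, Itgav and Itgb8, and Icam1, a ligand. These are 10 of the 52355 genes to which the transcripts were summed, and all 10 were among the 23729 that passed the filter on low counts. The 12 libraries fall into 3 groups of 4. Healthy libraries had neither tumor nor CD40 agonist, tumor-draining libraries came from nodes that drain a KPC tumor under the skin, and agonist libraries from nodes of this second kind after treatment with a CD40 agonist. KPC is a model of pancreatic cancer, and CD40 is a receptor by which antigen-presenting cells are activated. The sources used here do not give strain, age, genotype of the mice, dose, timing, any control injection, how many mice made up a library or how the CD11c cells were selected. A prefix in the titles occurs once in each group and gave replicate numbers 1 to 4; what it stands for is not stated. The labels do not call the libraries separate animals, so the p-values here measure only the spread between these 12 samples, part of which may be technical.

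Beta2 integrins are found on white blood cells only: the Itgb2 chain pairs with Itgal (LFA-1), Itgam (Mac-1, CD11b) or Itgax (CD11c), and without the beta chain none of them reaches the surface. LFA-1 and Mac-1 bind ICAM-1, which holds dendritic cells and T cells together during antigen presentation. The Itgb7 chain pairs with Itga4, giving the receptor for MAdCAM-1 that guides cells to gut tissue, or with Itgae (CD103), which binds E-cadherin and marks a class of dendritic cells. Itgav with Itgb8 releases active TGF-beta from its latent complex on dendritic cells.

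Library totals ran from 32626784 to 56320661 estimated counts, with a median of 45423645.5. Dendritic cell markers were read beside the label of the cells. Itgax, which is the gene of that label and so cannot check it, stood between 641 and 1130 CPM (counts after scaling for library size) in every library. The 16 dendritic cell markers summed to 4958 to 7947 CPM in healthy, 4653 to 8126 in tumor-draining and 2992 to 5209 in agonist libraries, and none of them was at 0 in any library. By the edgeR test described below, 8 of the 16 fell and 1 rose in agonist against healthy nodes, beside 6.28% of all genes called. With the title prefix as a block 12 fell and 3 rose, beside 20.1%. Markers of other cells were also present, with sums from 204 to 500 CPM for 10 T cell genes, from 210 to 474 for 7 B cell genes and from 22.3 to 125 for 10 neutrophil genes. Monocyte and macrophage markers summed to 825 to 1682 CPM for 8 and 589 to 1605 for 9 genes. These lists differ in number, length and level of their genes, so their sums do not rank the cell types. Wdfy4 alone gave 3037 of the 7947 CPM of dendritic cell markers in healthy replicate 3. In RNA of a whole cell preparation, fewer cells of a type and less RNA per cell cannot be told apart.

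Levels of different genes can be set side by side only per transcript length, in the TPM unit. In healthy nodes Itgax stood at 240 ± 22.9 TPM (SD, n = 4) and Itgb2 at 198 ± 45.3, within each other's spread. Icam1 followed at 124 ± 15.0, then Itgb7 at 74.4 ± 20.4 and Itga4 at 64.3 ± 4.91, which overlap. Itgam at 22.5 ± 4.78, Itgav at 19.7 ± 2.46, Itgal at 18.9 ± 5.42 and Itgae at 14.1 ± 3.02 form a lower tier in which neighbours do not differ beyond their spread. Itgb8 was lowest at 2.94 ± 1.02 TPM. Counting protein-coding transcripts only, Itgax came to 153 ± 36.5 TPM and Itgb2 to 186 ± 45.1, so the order of the first pair depends on which transcripts are summed. On the same count Itga4 came to 27.2 ± 4.61 TPM, with all 4 healthy libraries below those of Itgb7, at 74.4 ± 20.4.

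For each comparison a gene was called at an adjusted p under 0.05 by the quasi-likelihood test of edgeR, adjusted over all 23729 genes by the Benjamini-Hochberg method. Libraries that share a prefix deviated together, so each result is also given, where the call differs, from the same fit with the prefix as a block. In tumor-draining against healthy nodes none of the 10 genes was called, beside 0.198% of all genes tested; 2 had an unadjusted p under 0.05, and DESeq2 and limma on TPM also called none. The blocked fit called 1, Itgam, higher, beside 6.3% of all genes. In agonist against tumor-draining nodes none was called, beside 2.68% of all genes; 4 had an unadjusted p under 0.05, and DESeq2 and limma called none. The blocked fit called 3, Itgb7 and Itgax lower and Icam1 higher, beside 13.3%. In agonist against healthy nodes 1 was called, Itgb7, lower, beside 6.28% of all genes, and 3 had an unadjusted p under 0.05. DESeq2 called 3 of the 10 and 2063 genes in all, and limma none of the 10 and 755 in all. How many of all genes had an unadjusted p under 0.05 was not counted, so those member counts have no share beside them. The blocked fit called 5 there, Itgb7 and Itgal lower and Itgam, Itgav and Icam1 higher, beside 20.1% of all genes. The comparisons share libraries by pairs, so their values are not independent of each other. The median log2 fold change of the 10 genes was 0.19, -0.19 and -0.02 in these 3 comparisons in the order given, beside -0.02, 0.02 and -0.03 over all genes tested. CPM ranges of the groups did not overlap for 4 of the 10 genes in agonist against healthy nodes (Itgb7, Itgam, Itgav and Icam1), beside 12.4% of all genes, and for 0 of 10 in the other comparisons, beside 4.26% with tumor alone and 8.26% in agonist against tumor-draining nodes.

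**Figure D1:**
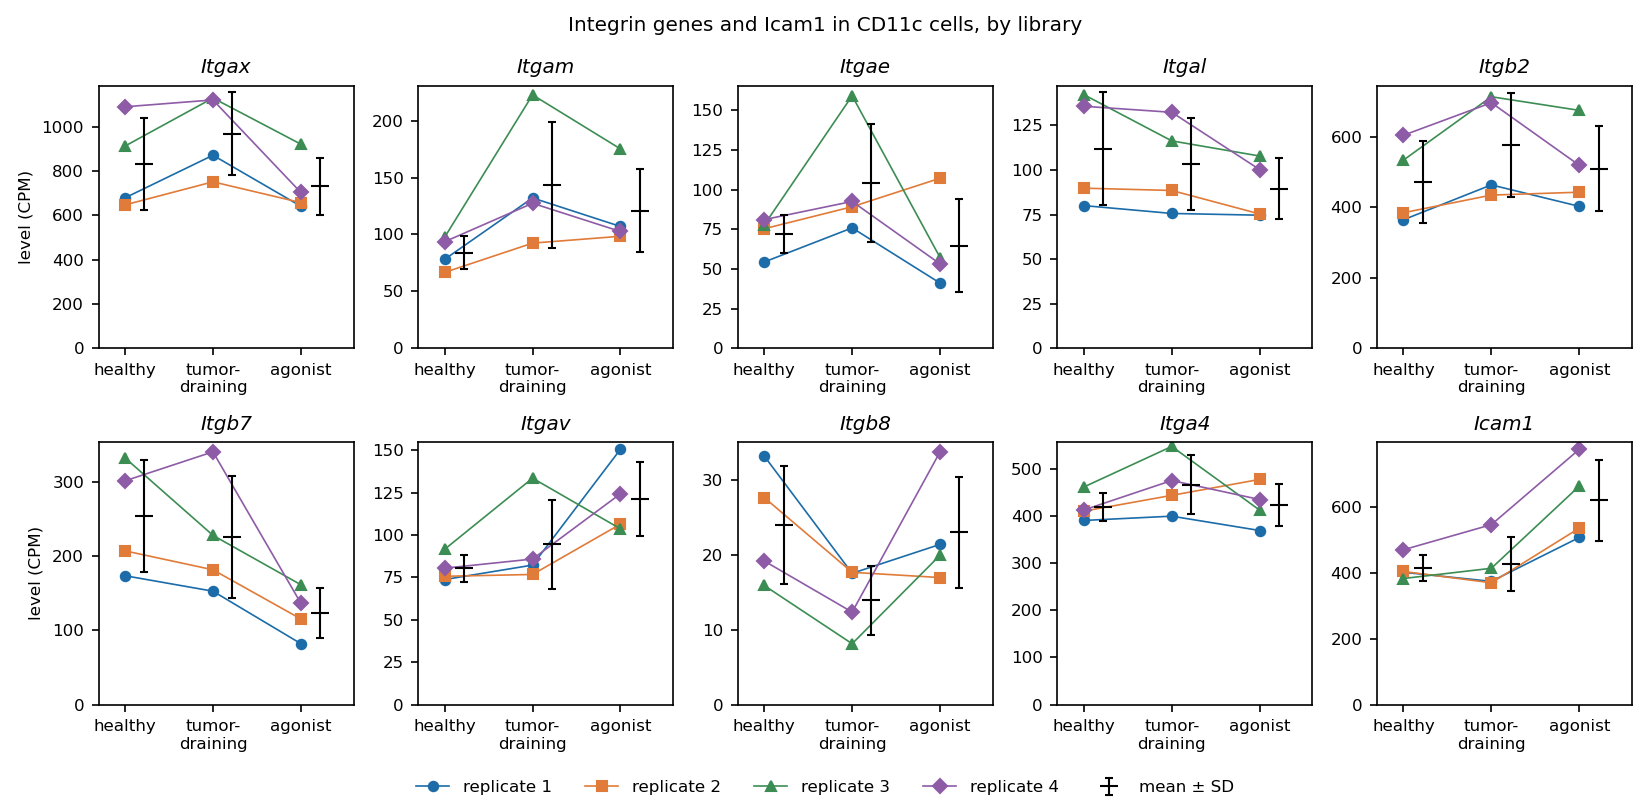
Level of each of the 10 genes (vertical axes, CPM, starting at 0) in the 12 libraries, by group; lines join libraries of the same title prefix and black marks are the group mean ± SD of 4 libraries. Itgb7 sits lowest in the agonist group for every prefix, Icam1 highest, and Itgam is lowest in healthy nodes for every prefix.

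Promoter sequences are shown for Icam1 and Itgb7, the genes called in both agonist comparisons with the block, and for Itgax, the gene of the cell label. Each run is the 250 bases before the RefSeq start on build GRCm38.p6, 5′ to 3′ on the gene's strand, at chr9:21015690-21015939 (plus strand) for Icam1, chr15:102231936-102232185 (minus strand) for Itgb7 and chr7:128129300-128129549 (plus strand) for Itgax; capitals mark motif matches.
Icam1: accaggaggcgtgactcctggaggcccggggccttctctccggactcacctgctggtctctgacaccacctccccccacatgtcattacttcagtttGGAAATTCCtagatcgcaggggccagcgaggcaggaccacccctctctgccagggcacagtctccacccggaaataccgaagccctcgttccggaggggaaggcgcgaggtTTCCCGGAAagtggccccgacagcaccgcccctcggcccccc
Itgb7: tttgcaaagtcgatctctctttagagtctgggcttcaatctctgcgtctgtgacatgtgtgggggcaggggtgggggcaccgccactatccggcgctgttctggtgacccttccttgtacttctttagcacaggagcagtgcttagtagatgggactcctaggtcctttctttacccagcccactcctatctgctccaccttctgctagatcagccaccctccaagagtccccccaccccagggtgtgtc
Itgax: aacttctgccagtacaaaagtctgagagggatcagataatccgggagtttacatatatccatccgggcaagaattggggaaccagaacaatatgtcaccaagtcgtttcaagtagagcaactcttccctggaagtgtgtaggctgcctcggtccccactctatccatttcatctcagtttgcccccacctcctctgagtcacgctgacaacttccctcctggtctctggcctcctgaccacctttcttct
Matches were sought for 5 motifs on both strands in the 7 of 10 genes with an entry in the RefSeq table (not Itgae, Itgal or Itgb2). The NF-kB form GGANNTTCC begins 153 bases before the Icam1 start, and the STAT form TTCNNNGAA 42 bases before it. Those letters occur in 3.59% and 7.02% of all 32851 promoters of the same length, and the first form was chosen with the Icam1 sequence in view. The ETS form GAGGAA, found in 23.3% of promoters, occurs at 2 places each in Itgam and Itgav. Itgb7, Itgax, Itgb8 and Itga4 hold none of these, nor GGGNNTTCC (4.98% of promoters) or the interferon-stimulated response element, a pair of TTTC with 2 bases between (2.98%). A match is a stretch of letters and not a measured binding site.

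Itgax (ENSMUSG00000030789.9, chr7:128129547-128150657, plus strand, GRCm38) encodes the alpha X chain by which the cells are labelled. Its level was 679, 647, 913 and 1090 CPM in healthy replicates 1 to 4, 871, 751, 1130 and 1121 in tumor-draining replicates and 641, 658, 921 and 703 in agonist replicates. All 3 groups overlap, but the agonist library was below the tumor-draining library of its prefix in 4 of 4 pairs. Agonist against tumor-draining gave a log2 fold change of -0.41 ± 0.20 (SE), not called without the block (edgeR adjusted p = 0.431). With the block it was -0.39 and was called (adjusted p = 0.0260), and it lost the call when replicate 1 was left out of that fit (adjusted p = 0.156). Tumor-draining nodes were above healthy nodes in 4 of 4 pairs, at a log2 fold change of 0.22 with adjusted p = 0.809, or 0.198 with the block. Agonist and healthy nodes differed by -0.19 on the log2 scale (adjusted p = 0.739), with 2 pairs each way. Of the 16 dendritic cell markers, 5 fell and 0 rose in agonist against tumor-draining nodes (11 and 1 with the block), beside 2.68% of all genes called (13.3% with the block). The 9 mature dendritic cell markers went the other way, with 5 higher and 0 lower (8 and 0 with the block). The part of these cells in the Itgax values was not tested.

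Itgam (ENSMUSG00000030786.18, chr7:128062640-128118491, plus strand) lies beside Itgax and encodes CD11b, which myeloid cells of many kinds carry. It measured 78.1, 66.6, 97.5 and 93.6 CPM in healthy replicates 1 to 4, 132, 92.4, 223 and 127 in tumor-draining replicates and 107, 98.4, 175 and 103 in agonist replicates. Every tumor-draining and every agonist library stood above the healthy library of its prefix, and the agonist range lies wholly above the healthy range. Against healthy nodes the log2 fold change was 0.77 ± 0.25 (SE) with tumor (1.71-fold, adjusted p = 0.344) and 0.52 ± 0.25 with tumor and agonist (1.44-fold, adjusted p = 0.307), neither called without the block.
With the block both were called, at adjusted p = 0.00937 and 0.0143. The first was lost without replicate 1 (adjusted p = 0.0931) or 2 (0.0521), and the second without replicate 1 (0.0745), 2 (0.0931) or 3 (0.0604).
Replicate 3 held the highest Itgam level of each group, and the change with tumor was 0.48 on the log2 scale when tumor-draining replicate 3 was omitted from the fit with group only. Agonist against tumor-draining nodes gave -0.25 ± 0.25 (adjusted p = 0.813), and 0.043 when tumor-draining replicate 3 was left out. Markers of other CD11b-bearing cells were measured beside it. The 10 neutrophil genes summed to 22.3 to 31.2 CPM in healthy, 48.8 to 125 in tumor-draining and 62.2 to 105 in agonist libraries; 7 of the 10 were tested, Ly6g, Camp and Elane were at 0 in at least 1 library, and against healthy nodes 1 rose with tumor (4 with the block) and 3 with tumor and agonist (6 with the block). The 9 macrophage genes summed to 621 to 826, 589 to 1004 and 1050 to 1605 CPM, and 6 of 8 tested rose and 1 fell in agonist against healthy nodes. The 8 monocyte genes summed to 825 to 1209 CPM in healthy, 853 to 1682 in tumor-draining and 827 to 1297 in agonist libraries, highest in tumor-draining replicate 3, where Itgam was also highest; 3 rose and 1 fell in agonist against healthy nodes (4 and 1 with the block). The 6 type 2 dendritic cell markers summed to 1010 to 1660 CPM in healthy, 1260 to 1874 in tumor-draining and 986 to 1543 in agonist libraries. Of these, 1 rose and 3 fell in agonist against healthy nodes (2 and 4 with the block). With tumor alone 1 rose and 0 fell (2 and 0 with the block). The part of all these cells in the Itgam values was not tested.

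Itgb2 (ENSMUSG00000000290.13, chr10:77530252-77565708, plus strand), the beta chain common to Itgax, Itgam and Itgal, was not called in any comparison, with or without the block. Its level was 364, 384, 534 and 604 CPM in healthy replicates 1 to 4, 463, 434, 713 and 696 in tumor-draining replicates and 403, 443, 675 and 519 in agonist replicates. Tumor-draining libraries were above healthy ones in 4 of 4 pairs at a log2 fold change of 0.29 ± 0.23 (SE), with adjusted p = 0.787, or 0.0794 with the block. Agonist nodes differed from tumor-draining nodes by -0.18 (adjusted p = 0.873) and from healthy nodes by 0.11 (adjusted p = 0.874), the latter turning to -0.015 without healthy replicate 1 and -0.052 without agonist replicate 3.

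Itgal (ENSMUSG00000030830.18, chr7:127296260-127335138, plus strand), the alpha chain of LFA-1 and abundant on T cells too, was highest in healthy, then tumor-draining, then agonist nodes within each prefix. It measured 80.0, 89.8, 142 and 136 CPM in healthy replicates 1 to 4, 75.6, 88.5, 116 and 132 in tumor-draining replicates and 74.6, 75.3, 108 and 100 in agonist replicates. The group ranges overlap widely, since replicates 3 and 4 are higher than 1 and 2 in every group. Agonist against healthy nodes gave -0.32 ± 0.22 (SE) on the log2 scale, lower in 4 of 4 pairs (adjusted p = 0.546). In the blocked fit Itgal fell by 0.30 (adjusted p = 0.0150), a call lost without replicate 4 (adjusted p = 0.0736). The 10 T cell markers summed to 254 to 494 CPM in healthy and 204 to 435 in agonist libraries, and 3 of the 10 fell in that comparison (8 with the block, which also called 1 higher); their part in the Itgal values was not tested.

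Itgb7 (ENSMUSG00000001281.10, chr15:102215995-102231944, minus strand) was the member with the largest change after the agonist and the only one called without the block. It measured 174, 207, 333 and 302 CPM in healthy replicates 1 to 4, 153, 182, 228 and 341 in tumor-draining replicates and 82.2, 116, 162 and 137 in agonist replicates. All 4 agonist libraries lie below all 4 healthy ones, while the highest agonist library, at 162, lies just above the lowest tumor-draining one, at 153. Against healthy nodes Itgb7 fell by 1.03 ± 0.28 (SE) on the log2 scale, 2.05-fold, in 4 of 4 pairs (edgeR adjusted p = 0.0377). Within prefixes that difference was -1.08, -0.84, -1.04 and -1.14 for replicates 1 to 4, and with the block the adjusted p was 0.000159.
Against tumor-draining nodes the log2 fold change was -0.87 ± 0.27, lower in 4 of 4 pairs, not called without the block (adjusted p = 0.131) and called with it (adjusted p = 0.000888). Both blocked calls held with each prefix left out in turn, with adjusted p up to 0.00565 against healthy and 0.0192 against tumor-draining nodes. Without the block, the call against healthy nodes was lost when healthy replicate 2 (adjusted p = 0.0513), 3 (0.126) or 4 (0.104), tumor-draining replicate 3 (0.0509), or agonist replicate 1 (0.0932), 2 (0.0925) or 4 (0.0651) was left out. Tumor-draining and healthy nodes differed by -0.17 ± 0.27 (adjusted p = 0.878), with 1 of 4 pairs higher.

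Itga4 (ENSMUSG00000027009.18, chr2:79255426-79333123, plus strand), the alpha 4 chain that pairs with Itgb7 or with Itgb1, varied least. It ran from 391 to 463 CPM in healthy, 401 to 549 in tumor-draining and 370 to 479 in agonist libraries, and its log2 fold changes of 0.16, -0.14 and 0.02 were not called with or without the block. The last of these, agonist against healthy, took either sign among the alternatives, -0.07 with upper quartile scaling. Itgb1, the other beta chain that pairs with Itga4, stood at 579 ± 69.1 CPM (SD, n = 4) in healthy, 571 ± 78.2 in tumor-draining and 530 ± 98.6 in agonist nodes, with no call.

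Itgae (ENSMUSG00000005947.11, chr11:73090583-73147446, plus strand), the CD103 alpha chain, measured 54.4, 75.3, 77.7 and 81.1 CPM in healthy replicates 1 to 4, 75.9, 89.2, 159 and 92.6 in tumor-draining replicates and 41.1, 107, 57.2 and 53.2 in agonist replicates. Tumor-draining libraries were higher than healthy ones in 4 of 4 pairs, and agonist libraries lower than tumor-draining ones in 3 of 4, replicate 2 being the exception. The log2 fold changes were 0.53 ± 0.28 (SE) for tumor-draining against healthy, -0.69 ± 0.28 for agonist against tumor-draining and -0.16 ± 0.28 for agonist against healthy, with adjusted p of 0.689, 0.290 and 0.855.
Neither fit called them. These calls turned on agonist replicate 2: without it the second difference was -1.05 and was called (adjusted p = 0.0486), and in the blocked fit without replicate 2 it was -1.09 (adjusted p = 0.00458), with -0.54 against healthy nodes (adjusted p = 0.0481). With replicates 1 and 2 alone the sign against healthy nodes was the opposite (0.21).
Itgae marks type 1 and migratory dendritic cells, and Itgb7 is carried by plasmacytoid dendritic cells and T cells as well. The 7 type 1 dendritic cell markers summed to 2814 to 4962 CPM in healthy, 2339 to 4914 in tumor-draining and 1456 to 2825 in agonist libraries, and 4 of them fell in agonist against healthy nodes (5 with the block, which also called 1 higher). The 7 plasmacytoid markers summed to 413 to 908, 357 to 965 and 278 to 625 CPM; edgeR called none without the block, with 2 at an unadjusted p under 0.05 and 1 called by DESeq2, and 4 fell with it. None of either list was at 0 in any library. The part of these cells in the Itgb7 and Itgae values was not tested.

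Itgav (ENSMUSG00000027087.11, chr2:83724397-83806916, plus strand), the alpha V chain, measured 73.7, 75.6, 91.5 and 80.4 CPM in healthy replicates 1 to 4, 82.2, 76.7, 133 and 85.8 in tumor-draining replicates and 151, 106, 104 and 124 in agonist replicates. Every agonist library was above every healthy library. The log2 fold change was 0.59 ± 0.18 (SE), 1.51-fold, not called without the block (adjusted p = 0.0674). It was called with the block (0.60, adjusted p = 0.0386), a call lost without replicate 1 (adjusted p = 0.105), 2 (0.133) or 4 (0.126); without the block, leaving out tumor-draining replicate 3 alone brought it to adjusted p = 0.0191. Agonist against tumor-draining nodes gave 0.36 (adjusted p = 0.436), higher in 3 of 4 pairs, and tumor-draining against healthy 0.24 (adjusted p = 0.783), higher in 4 of 4, but 0.023 without tumor-draining replicate 3. The highest Itgav libraries, agonist replicate 1 and tumor-draining replicate 3, were also highest for Itga2 (41.6 and 47.3 CPM), Itga3 (27.5 and 25.7) and Cdh1 (72.5 and 118). Itga2 stood at 6.22, 7.20 and 10.4 CPM in agonist replicates 2 to 4. The part of cells that carry these genes in the Itgav values was not tested.

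Itgb8 (ENSMUSG00000025321.14, chr12:119158022-119238802, minus strand), the beta chain that lets alpha V activate TGF-beta, was the scarcest member. It measured 33.2, 27.6, 15.9 and 19.2 CPM in healthy replicates 1 to 4, 17.5, 17.7, 8.12 and 12.3 in tumor-draining replicates and 21.4, 17.0, 19.9 and 33.7 in agonist replicates. Tumor-draining libraries were below healthy ones in 4 of 4 pairs at a log2 fold change of -0.78 ± 0.29 (SE), with adjusted p = 0.446, or 0.137 with the block. Agonist against tumor-draining nodes gave 0.73 ± 0.29 (adjusted p = 0.268, or 0.121 with the block), higher in 3 of 4 pairs. Agonist against healthy nodes gave -0.06, lower in replicates 1 and 2 and higher in replicates 3 and 4.

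Icam1 (ENSMUSG00000037405.8, chr9:21015985-21028817, plus strand), the ligand of LFA-1 and Mac-1, moved opposite to Itgb7 after the agonist. It measured 401, 404, 382 and 469 CPM in healthy replicates 1 to 4, 374, 369, 413 and 546 in tumor-draining replicates and 507, 535, 663 and 774 in agonist replicates. All 4 agonist libraries lie above all 4 healthy ones, and only tumor-draining replicate 4 reaches into the agonist range. The log2 fold change was 0.54 ± 0.17 (SE) against tumor-draining nodes (1.46-fold, adjusted p = 0.127) and 0.58 ± 0.17 against healthy nodes (adjusted p = 0.0580), higher in 4 of 4 pairs in each.
Neither passed without the block, although the second did when agonist replicate 1 was left out (adjusted p = 0.0432). With the block Icam1 rose in both (adjusted p = 0.00167 and 0.000778), and also with each prefix left out in turn, with adjusted p up to 0.0164 and 0.0145. Tumor-draining and healthy nodes differed by 0.04 ± 0.17 (adjusted p = 0.954).
The 9 markers of mature dendritic cells, which include Relb, summed to 2915 to 4544 CPM in healthy, 2583 to 4324 in tumor-draining and 5888 to 9178 in agonist libraries, and 5 of them rose against tumor-draining and 6 against healthy nodes, with none lower. Their part in the Icam1 values was not tested.

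**Figure D2:**
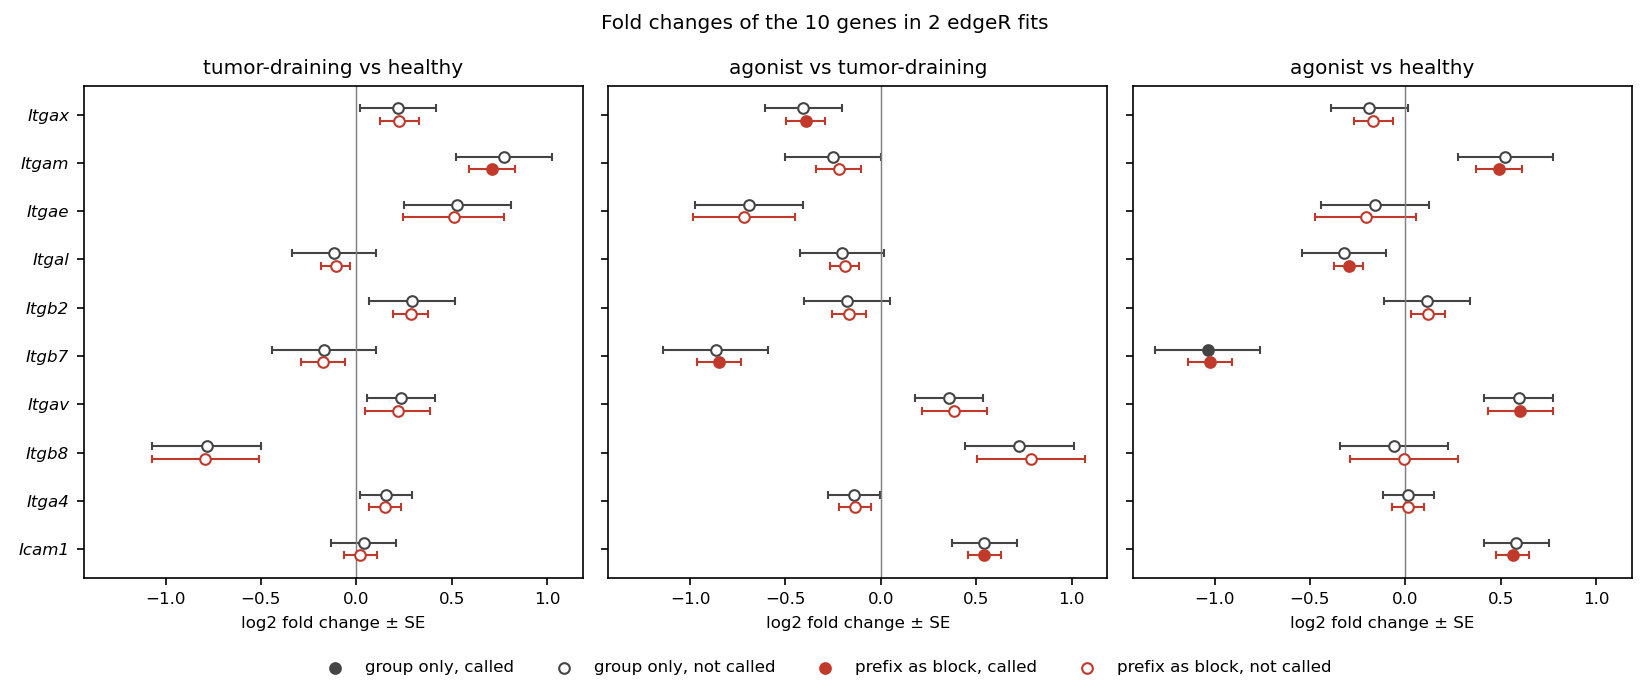
Log2 fold change ± SE (horizontal axis) of the 10 genes in the 3 comparisons, from the edgeR fit with group only (grey) and with the title prefix as a block (red); filled points were called at an adjusted p under 0.05. The estimates of the 2 fits lie close together, and the filled grey point is Itgb7 in agonist against healthy nodes at -1.03.

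Because integrin chains act in pairs, the ratio of chains that share or compete for a partner was compared within each library on the TPM scale. Itgax to Itgam, the alpha chains that share Itgb2, stood at 12.6, 11.9, 8.67 and 10.6 in healthy replicates 1 to 4, 9.90, 10.6, 6.09 and 7.90 in tumor-draining replicates and 6.85, 8.15, 4.27 and 6.15 in agonist replicates. On all transcripts the ratio decreased in the order healthy, tumor-draining, agonist within every prefix, and all agonist values lie below all healthy ones. On protein-coding transcripts alone that order did not hold in replicate 3, at 10.5, 5.46 and 5.75. For agonist against healthy the mean log2 ratio was 2.63 ± 0.39 (SD, n = 4) against 3.44 ± 0.24, a difference of -0.81 with an exact two-sided permutation p = 0.0286, the smallest that 4 against 4 can give. Adjusted over the 9 ratio tests this exact p became 0.257, and the exact sign-flip test over the 4 pairs cannot go below 0.125. Agonist against tumor-draining gave -0.44 on all transcripts but -0.18 on protein-coding transcripts alone.

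Itgae to Itga4, which compete for Itgb7, differed by 0.39 on the log2 scale in tumor-draining against healthy nodes and by -0.73 in agonist against tumor-draining nodes, with exact permutation p = 0.171 and 0.114 (both 0.257 adjusted over the 9 tests). Itgav to Itgb8 ran from 4.54 to 11.1 in healthy, 9.21 to 35.9 in tumor-draining and 7.68 to 15.2 in agonist libraries. It was higher with tumor in 4 of 4 pairs, by 1.12 on the log2 scale (exact permutation p = 0.114, adjusted 0.257), with tumor-draining replicate 3 far above the others. Against healthy nodes the agonist gave 0.71 in that ratio, but 1.43 in replicates 1 and 2 and -0.015 in replicates 3 and 4. None of the 9 ratio tests passed after adjustment (adjusted exact p from 0.257 to 0.543), and 1 of them had an unadjusted p under 0.05.

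**Figure D3:**
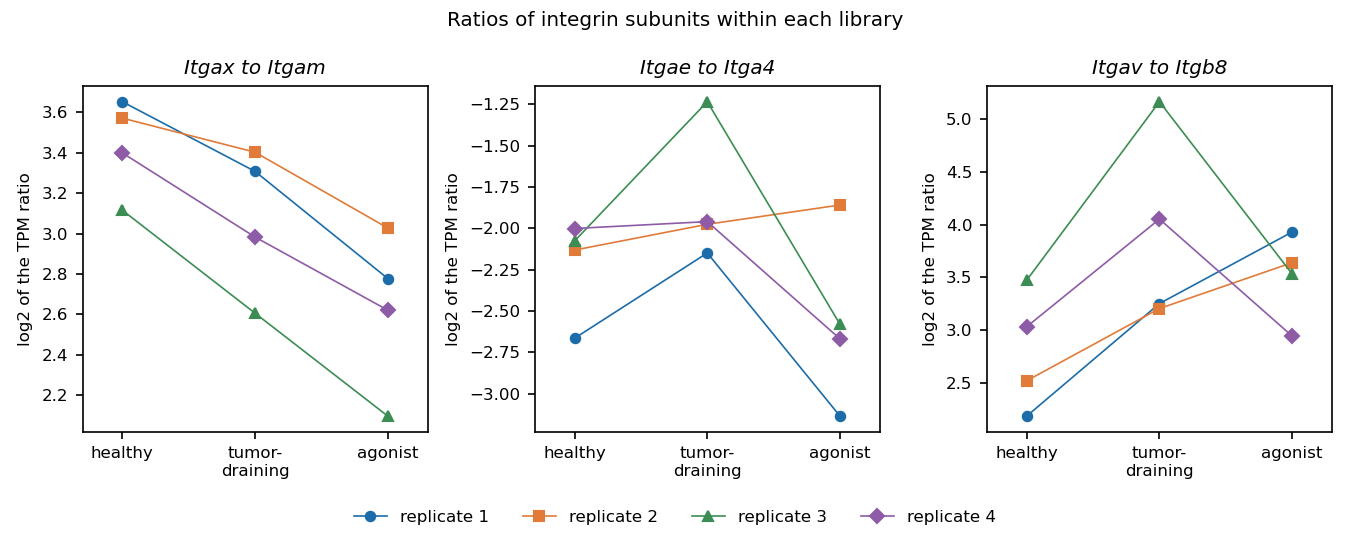
Log2 of the TPM ratio of 2 integrin chains, all transcripts summed (vertical axes, a separate scale in each panel) in the 12 libraries by group; lines join libraries of the same title prefix. Itgax to Itgam declines along all 4 lines, and Itgav to Itgb8 peaks in tumor-draining replicate 3 at a ratio of 35.9.

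The prefix held much of the spread of the beta2 genes. Of the variance of log2 CPM over the 12 libraries, the prefix held 81.4% for Itgal, 78.8% for Itgb2 and 57.1% for Itgax, and the group 13.6%, 12.9% and 28.7%. Itgax, Itgal, Itgb2 and Itgb7 were higher in both of replicates 3 and 4 than in both of replicates 1 and 2 in all 3 groups, by a mean of 0.46, 0.59, 0.58 and 0.70 on the log2 scale. The libraries split the same way in mitochondrial counts, 2.6% to 4.8% of a library in replicates 1 and 2 and 1.2% to 2.2% in replicates 3 and 4, and in counts of the nuclear RNA Malat1, 1.25% to 2.47% and 0.418% to 1.15%; their part in these levels was not tested. For Icam1 the group held 62.2% and the prefix 31.0%, for Itgb7 56.3% and 38.3%, for Itgav 52.3% and 13.5%, and for Itgam 42.3% and 48.0%. Itgb8 went the other way over all groups together, lower by 0.39 in replicates 3 and 4. This did not hold in agonist nodes, at 21.4, 17.0, 19.9 and 33.7 CPM in replicates 1 to 4.

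Most reads of the 10 genes were assigned to 1 transcript each. The leading transcript held 99.5% ± 0.248 (SD, n = 12) of the estimated counts of Itgb7, 97.0% ± 1.13 of Itgax, 95.8% ± 1.90 of Icam1 and 93.1% ± 1.60 of Itgav, but 63.9% ± 8.14 of Itgam and 49.8% ± 4.21 of Itgal. Per length the leading transcript held less, 60.7% of TPM for Itgax, 45.6% for Itgav and 50.8% for Itgb2 (87.6% of its estimated counts). Itgax-202, a transcript with a retained intron, took 0.72% to 2.24% of its estimated counts but 20.7% to 43.6% of its TPM. Retained-intron transcripts together made up 37.8% to 47.8% of Itgax TPM in replicates 1 and 2 and 23.0% to 39.9% in replicates 3 and 4. Transcripts that code for no protein made up 57.6% ± 6.85 of Itga4 TPM. How reads are divided between transcripts of a gene is a model's estimate and uncertain.

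Around the 10 genes, 60 genes of 6 lists were read from the same fits: 12 other alpha chains, 5 other beta chains, 12 further ligands, 7 genes of latent TGF-beta, 17 of integrin activation and 7 of its restraint. With tumor alone none of the 60 was called by edgeR (beside 0.198% of all genes), DESeq2 or limma, and 8 had an unadjusted p under 0.05. The block called 1 higher, Itgb3, and 3 lower, Thy1, Skap1 and Tgfb3, beside 6.3% of all genes. In agonist against tumor-draining nodes 3 rose and 2 fell, beside 2.68% of all genes called (7 and 8 with the block, beside 13.3%). In agonist against healthy nodes 6 rose and 4 fell, beside 6.28% (15 and 6 with the block, beside 20.1%). The median log2 fold change of the 60 was 0.17, 0.15 and 0.27 in the 3 comparisons.

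In the ligand list Vcam1 was called against both groups; its product binds the pair of Itga4 and Itgb1. It measured 224, 180, 123 and 171 CPM in healthy replicates 1 to 4, 248, 149, 243 and 189 in tumor-draining replicates and 547, 345, 402 and 516 in agonist replicates, with the agonist group wholly above both others. Vcam1 rose by 1.13 ± 0.21 (SE) on the log2 scale against tumor-draining nodes (adjusted p = 0.0114) and by 1.37 ± 0.22 against healthy nodes (adjusted p = 0.00155). Of the 8 macrophage markers tested, 3 rose and 0 fell against tumor-draining nodes (3 and 1 with the block). Against healthy nodes 6 rose and 1 fell (also with the block). Their part in the Vcam1 values was not tested. Icam5 rose against tumor-draining nodes by 1.13 ± 0.28 (adjusted p = 0.0485) from a low level, 1.48 to 3.24 CPM on average, a call lost in 11 of the 12 fits that leave out 1 library (adjusted p up to 0.156). Icam2, another LFA-1 ligand, stood at 6.37 ± 0.62, 6.22 ± 1.37 and 6.37 ± 1.20 CPM in the 3 groups. Madcam1 and Cdh1 were not called: Madcam1 stood at 0.451 ± 0.058, 0.466 ± 0.092 and 0.890 ± 0.488 CPM, and Cdh1, the gene of E-cadherin, at 27.5 ± 8.63, 57.2 ± 41.4 and 36.6 ± 24.2 (SD, n = 4 each). Against healthy nodes the blocked fit called 3 ligands higher and 1 lower, among them F11r (0.54, adjusted p = 0.0109) and Thy1 (-0.56, adjusted p = 0.0185).

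Among other alpha chains, Itga8 fell by 1.41 ± 0.31 (SE) against tumor-draining nodes (adjusted p = 0.0248) and by 1.71 ± 0.31 against healthy nodes (adjusted p = 0.00408), from 24.9 ± 5.41 CPM in healthy to 7.60 ± 2.97 in agonist libraries. Itga9 rose against healthy nodes by 1.73 ± 0.31 (adjusted p = 0.00442), from 15.0 ± 3.04 to 49.5 ± 8.21 CPM. Itga1 fell by 0.71 ± 0.19 in the same comparison (adjusted p = 0.0353), and its tumor-draining level, at 27.3 CPM, was as low as its agonist level of 26.2. Of the 5 other beta chains, Itgb5, which pairs with Itgav, rose by 0.92 ± 0.24 against healthy nodes (adjusted p = 0.0368), a call lost with the block (adjusted p = 0.0710). With each of the 12 libraries left out in turn, the calls of Itga1 and Itgb5 against healthy nodes were each lost 8 times, and that of Itga8 against tumor-draining nodes 4 times. Itgb3, also a partner of Itgav, was called higher with tumor in the blocked fit alone (0.53, adjusted p = 0.0303).

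Genes that turn integrins on and off were next. Rasgrp2, the exchange factor that activates Rap1 in white blood cells, fell by 0.84 ± 0.17 (SE) against tumor-draining nodes (adjusted p = 0.0181) and by 1.01 ± 0.17 against healthy nodes (adjusted p = 0.00259). Skap1, an adaptor of T cells in the same pathway, fell by 0.90 ± 0.24 against healthy nodes (adjusted p = 0.0356), where 3 of the 10 T cell markers fell as well; their part was not tested. The tumor-draining level of Skap1, at 7.41 ± 2.71 CPM, was as low as its agonist level of 7.39 ± 1.34, with 13.8 ± 2.14 in healthy libraries. On the side of restraint, Rap1gap, which switches Rap1 off, rose by 1.22 ± 0.22 against healthy nodes (adjusted p = 0.00434), at a level of 3.38 ± 1.12 CPM in healthy and 7.88 ± 0.767 in agonist libraries. Dok1, which competes with talin for the beta chain tail, rose by 0.68 ± 0.15 against tumor-draining (adjusted p = 0.0253) and 0.59 ± 0.15 against healthy nodes (adjusted p = 0.0294). Cytip, which binds cytohesin-1 and lowers LFA-1 adhesion, rose by 0.54 ± 0.14 against healthy nodes (adjusted p = 0.0337). When each of the 12 libraries was left out in turn, the call against healthy nodes was lost 9 times for Cytip, 7 for Skap1 and 5 for Dok1 (adjusted p up to 0.113, 0.113 and 0.122), and the call against tumor-draining nodes 5 times for Dok1 and 3 for Rasgrp2. Against healthy nodes 3 of 7 restraint genes rose and none fell, and 2 of 17 activation genes fell and none rose, beside 6.28% of all genes called; limma called 1 and 0. The blocked fit called 4 higher and 1 lower of the restraint genes, and 5 higher and 2 lower of the activation genes, beside 20.1% of all genes. Fermt3, the kindlin of blood cells, was not called, at 224 ± 68.6, 267 ± 77.4 and 258 ± 82.6 CPM in the 3 groups.

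None of the 7 latent TGF-beta genes was called by edgeR in any comparison without the block; in agonist against healthy nodes 1 had an unadjusted p under 0.05, and DESeq2 and limma called 1 each. Tgfb1 stood at 72.9 ± 20.8, 76.7 ± 14.8 and 74.4 ± 15.3 CPM in the 3 groups. Tgfb2 was scarce, at 0.793 ± 0.369 CPM in healthy and 2.04 ± 0.352 in agonist libraries, and was called higher with the block against tumor-draining (1.09, adjusted p = 0.0308) and healthy nodes (1.46, adjusted p = 0.00519).

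**Figure D4:**
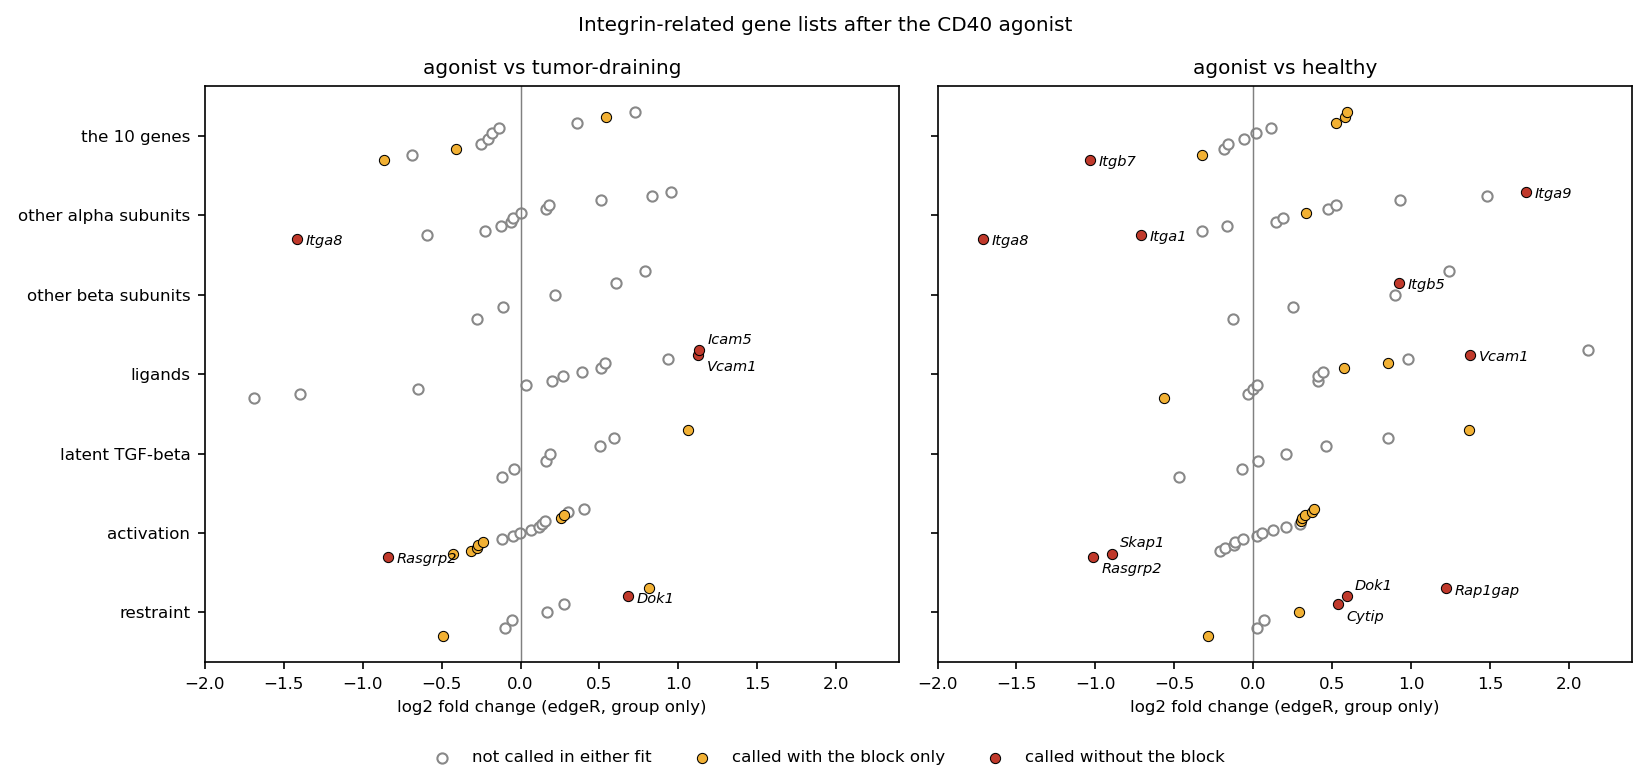
Log2 fold change (horizontal axis, edgeR with group only) of every tested gene of the 10-gene set and of the 6 other lists, in agonist against tumor-draining and agonist against healthy nodes; each point is 1 gene, red and named where called without the block, yellow where called with the block only. Vcam1 lies at 1.13 and 1.37, Itga8 at -1.41 and -1.71, and the red activation genes lie to the left and the red restraint genes to the right of 0. Yellow genes of the 10-gene set and of the ligand, activation and restraint lists fall on both sides over the 2 comparisons, with all 5 yellow activation genes against healthy nodes to the right. In the latent TGF-beta list the yellow gene lies to the right in both comparisons, and the other beta chains have no yellow gene.

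The genes whose pattern over the 12 libraries was most like that of a member were found by the root mean square difference of centred log2 CPM, among 10590 genes. For Icam1 these were H2-K1 at 0.063, Relb at 0.072 and Trafd1 at 0.078 log2 units. For Itgax they were Rassf7 at 0.092, Lat2 at 0.093 and Tnfaip8l2 at 0.094. For Itgb7 the nearest were farther off, Pxylp1 at 0.118, Man2a2 at 0.133 and Unc119b at 0.140, as for Itgam, with Ppp1r3d at 0.137, Tgfbi at 0.151 and Myd88 at 0.159. Of the 10 genes Itga4 had the closest neighbour, Mob1a at 0.043, and Itgae the most distant, Gatm at 0.228; Itgal lay nearest to Notch2 (0.060), Itgb2 to Was (0.064), Itgav to Odc1 (0.127) and Itgb8 to Eno2 (0.186). All these likenesses are over libraries that share depth, prefix and group.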

How the data were processed

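RNA of CD11c cells was measured in 12 libraries made with a strand-keeping kit, per the labels' protocols. The values used were the authors' deposited estimated counts of each transcript, without normalization, from Salmon and mm10 per the submitters' processing notes. TPM, the second deposited unit, was computed by the authors in that run; the tables' deposited name says sailfish, a related program. The sources used here give no program version or annotation release. A model divides reads between similar transcripts, which makes transcript shares uncertain.

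Transcripts were summed to genes by GENCODE release M21 and rounded; 400 of 132374 matched no gene and held 0.116% to 0.148% of a library. Genes were tested with edgeR 4.0.16 (R 4.3.3; quasi-likelihood, robust, TMM, filterByExpr with minimum count 10), all 12 libraries in 1 fit with group as the only term. CPM used TMM scaling. The biological coefficient of variation was 33.9%, and 20.7% with the prefix as a block. Precision is limited by 4 libraries a group; no 2 libraries of a group were alike within sampling noise (lowest chi-square per degree of freedom 27.7). DESeq2 1.42.0 and limma 3.58.1 (log2(TPM + 1)) were alternatives, with other scalings, no filter, 2 groups only, subsets of replicates and libraries left out. Ratios were tested by exact permutation (scipy 1.17.1). The fits were tested on simulated data.

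The labels do not state a pairing. Deviations from group means correlated at 0.204 to 0.473 in all 12 same-prefix pairs, against a median of -0.235 in the 36 others. Centred deviations cancel within a group, so positive same-prefix values push the others below zero, and their median is not a separate contrast. The check also cannot tell a pairing by design from the split of libraries in mitochondrial and Malat1 counts. The prefix was used as a block on this ground, and the blocked value is printed beside each result whose call it changes. Named were the 10 members, 8 fixed partners and ligands (Itgb1, Vcam1, Madcam1, Icam2, Cdh1, Fermt3, Cytip, Tgfb1), from each pathway list genes among the 3 smallest p of a comparison, and for likeness the 3 nearest genes with mean log2 CPM of at least 2. Members and lists were chosen with earlier results of these data known. The blocked fits without a prefix and the protein-coding ratios were added after seeing the data.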

Additional observations from a re-analysis of the deposited data

Results flagged for a closer look

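Group values of the 10 genes were checked for a library that stands apart, by the gap to its nearest neighbour as a share of the group's range, against Dixon's 95% critical value for 4 libraries. Of 30 groups checked 2 passed, where chance flags about 1 in 20. Itgam in agonist replicate 3 was at 175 CPM, with the other 3 agonist libraries between 98.4 and 107 (gap 0.888 of the range). Itgav in tumor-draining replicate 3 was at 133 CPM, with the other 3 between 76.7 and 85.8 (gap 0.840 of the range).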

How the results depend on the processing

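In tumor-draining against healthy nodes 47 genes were called without it and 1495 with it, 364 with DESeq2, 30 with upper quartile factors, 75 with no filter on low counts, 25 with only the 2 groups compared, 1 with limma on log2(TPM + 1), 31 with only replicates 1 and 2, 0 with only replicates 3 and 4, and 107, 193, 164 and 1502 in the replicate block without replicate 1, 2, 3 or 4. In agonist against tumor-draining nodes 635 became 3161 with the block, 1090 with DESeq2, 973 with upper quartile factors, 270 with limma, 91 with only replicates 1 and 2, 189 with only 3 and 4, and 1609, 2241, 2311 and 2333 in the block without replicate 1, 2, 3 or 4. In agonist against healthy nodes 1490 became 4781 with the block, 755 with limma, 614 with only replicates 1 and 2, 808 with only 3 and 4, and 2751, 3134, 3172 and 4450 in the block without each replicate. The same count was 2063 with DESeq2, 1811 with upper quartile factors, 1328 with only the 2 groups compared, 1324 with RLE factors and 1195 with no filter. Leaving out single libraries gave 0 to 101, 323 to 547 and 829 to 1535 calls in the 3 comparisons. The cause of these changes in count was not tested for any setting.

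Of the 10 genes, with tumor alone, 0 were called without the block, 1 with it, and 0, 0, 1 and 2 in the block without replicate 1, 2, 3 or 4, and 0 without any single library. In agonist against tumor-draining nodes 0 became 3 with the block (2, 4, 4 and 3 without replicate 1, 2, 3 or 4), 2 with upper quartile factors (Itgb7 and Icam1), and 0 to 1 without single libraries. In agonist against healthy nodes 1 became 5 with the block (3, 4, 4 and 3 without each replicate), 3 with DESeq2 (Itgb7, Itgav, Icam1), 2 with upper quartile factors, 2 with only the 2 groups compared, 0 with RLE factors, no filter or limma, and 0 to 1 without single libraries. The block changed calls of Itgam, Itgax, Itgal, Itgb7, Itgav and Icam1, and none of Itgb2, Itga4, Itgae or Itgb8. Upper quartile factors moved the median of all genes by up to -0.097.

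Over all alternatives, fold changes of the 10 genes kept direction and side of the threshold in 667 values, became called in 43, lost the call in 10 and changed sign in 30, all in values that were not called. Fold changes of the other named genes lost the call in 110 values, became called in 40 and changed sign in 14. Sign changes were between healthy and agonist nodes for Itgae with replicates 1 and 2 only (0.21), Itgb2 (block without replicate 3, -0.016; single libraries left out, -0.052 to 0.26), Itgb8 (replicates 3 and 4 only, 0.60; block without replicate 1 or 2, 0.20 and 0.15; single libraries, -0.33 to 0.13) and Itga4 (upper quartile, -0.073; no filter, -0.0037; 2 groups only, -0.011; replicates 3 and 4, -0.057; block without replicate 2, -0.11; single libraries, -0.056 to 0.067). For tumor-draining against healthy they were Icam1 (upper quartile, -0.069; limma, -0.026; replicates 1 and 2, -0.082; block without replicate 3 or 4, -0.017 and -0.040; single libraries, -0.10 to 0.11) and Itgal (single libraries, -0.27 to 0.0083), and for agonist against tumor-draining Itgam (single libraries, -0.49 to 0.043). In that comparison uncalled values of other genes also changed sign: Icam2 (limma, -0.068; replicates 1 and 2, -0.081; block without replicate 1 or 4, -0.011 and -0.12; single libraries, -0.12 to 0.14), Cdh1 (replicates 1 and 2, 0.35), Tgfb1 (replicates 3 and 4, 0.034; block without replicate 1 or 4, 0.014 and 0.011; single libraries, -0.16 to 0.072) and the ratio of Itgav to Itgb8 (replicates 1 and 2, 0.56; single libraries, -0.65 to 0.0083), as did that ratio against healthy nodes in replicates 3 and 4 (-0.015).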
